A study of Rattus norvegicus with 2 samples.

Results

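The 6 genes described here encode the enzymes that place the fatty acid myristate on the N-terminus of proteins, together with a pair of classical proteins that carry it. They are Nmt1 and Nmt2 (N-myristoyltransferases), Metap1 and Metap2 (methionine aminopeptidases), and Marcks and Marcksl1 (the myristoylated alanine-rich C-kinase substrate and its relative). They were chosen by symbol, and all 6 were found among the 32623 genes listed, of which 19393 had at least 1 UMI (a unique molecular identifier, which counts 1 captured mRNA molecule). Single cells were profiled on the 10x Genomics platform from carotid arteries of male SD rats labelled as 12 weeks old, collected 28 days after a balloon catheter had been inflated and drawn back repeatedly in the right common carotid artery. The left arteries (treatment "none") formed the control group and the right arteries of the same animals (treatment "cartoid balloon injury") formed the case group, with 1 library per group. Each library pooled the arteries of 2 rats, so the control is the uninjured side of an operated animal, and on the injured side the external carotid branch had also been ligated.

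In myristoylation the initiator methionine is first removed by a methionine aminopeptidase, and an N-myristoyltransferase then joins myristate to the glycine that this exposes. The lipid helps proteins such as Src-family kinases, Arf GTPases and inhibitory G protein alpha subunits to reach membranes. MARCKS and its relative bind actin, calmodulin and the membrane lipid PIP2, and they leave the membrane when protein kinase C phosphorylates them or when calmodulin binds. Vascular smooth muscle cells (VSMCs) that have lost their contractile state after arterial injury migrate and divide, and both processes use this membrane and actin machinery.

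The promoters of 4 of the genes are shown because Nmt1 and Metap2 were both higher in the case group in most cell classes, whereas Marcks and Marcksl1 were distributed differently over the classes. Each sequence holds the 250 bases before the start of the gene in RefSeq (rat assembly GRCr8), read 5′ to 3′ on the strand of the gene. The windows are chr10:88488668-88488917 on the plus strand for Nmt1, chr7:30327449-30327698 on the minus strand for Metap2, chr20:42245883-42246132 on the minus strand for Marcks and chr5:147135577-147135826 on the plus strand for Marcksl1. Capitals mark GC boxes (GGGCGG, or CCGCCC on the other strand) and CCAAT boxes (CCAAT, or ATTGG on the other strand), motifs that do not overlap each other in these windows.
Nmt1: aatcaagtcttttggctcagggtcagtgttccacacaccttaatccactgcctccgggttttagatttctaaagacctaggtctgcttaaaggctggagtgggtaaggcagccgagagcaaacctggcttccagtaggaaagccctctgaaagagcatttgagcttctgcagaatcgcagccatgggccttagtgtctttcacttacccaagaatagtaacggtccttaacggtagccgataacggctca
Metap2: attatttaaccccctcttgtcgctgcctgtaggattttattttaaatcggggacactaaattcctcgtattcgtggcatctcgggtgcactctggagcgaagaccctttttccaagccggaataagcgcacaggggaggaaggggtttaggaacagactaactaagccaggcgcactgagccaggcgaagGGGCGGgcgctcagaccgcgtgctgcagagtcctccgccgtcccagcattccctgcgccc
Marcks: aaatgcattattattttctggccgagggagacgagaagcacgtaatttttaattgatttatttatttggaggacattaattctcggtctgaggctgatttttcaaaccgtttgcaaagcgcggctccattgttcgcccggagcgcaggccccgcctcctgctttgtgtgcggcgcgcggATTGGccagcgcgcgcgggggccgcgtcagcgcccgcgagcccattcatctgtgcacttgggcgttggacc
Marcksl1: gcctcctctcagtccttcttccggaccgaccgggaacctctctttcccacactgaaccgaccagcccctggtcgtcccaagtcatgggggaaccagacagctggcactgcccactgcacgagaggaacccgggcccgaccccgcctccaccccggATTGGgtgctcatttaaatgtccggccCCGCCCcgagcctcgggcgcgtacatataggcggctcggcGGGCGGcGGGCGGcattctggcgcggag

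The Nmt1 window held 0 GC boxes and 0 CCAAT boxes, with 49.2% GC and 7 CpG pairs, close to the median of all 33469 rat promoters in the table (51.2% GC and 5 CpG pairs). The other 5 windows held 17 to 32 CpG pairs. GC boxes numbered 1 in the Metap2 window, 3 in that of Marcksl1, 3 in that of Metap1 and 6 in that of Nmt2. A CCAAT box was found in the Marcks and Marcksl1 windows, 1 in each. Over all promoters, 30.5% held a GC box and 34.0% a CCAAT box. No TATA box (TATAAA, found in 12.9% of all promoters) and no CArG box, the site of serum response factor in contractile genes (found in 1.5%), was present in any of the 6 windows on either strand. A match or its absence describes these letters only.

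The control library held 3321 barcodes and the case library 5656, and the barcodes of each group were told apart by these numbers, which the study states. Of them, 2742 control and 4930 case barcodes were kept, with medians of 8880 and 5156 UMIs, and 27.5% of the kept control barcodes but 6.49% of the case barcodes had under 2000 UMIs. The libraries shared 21 barcode sequences. Each cell was assigned to a class by its own marker genes (VSMC by Acta2, Tagln, Cald1, Myl9, Myh11 and Cnn1), which gave 1619 control and 2695 case VSMCs, 757 and 1400 fibroblasts, 57 and 260 endothelial cells (ECs), 44 and 117 macrophages and 23 and 61 Schwann cells. A further 242 control and 397 case cells were left out of every class. VSMC markers made up 25515 and 20517 CPM (UMIs per 1000000 UMIs) in control and case VSMCs but 922 and 877 in fibroblasts. Fibroblast markers reached 23543 and 19049 CPM in fibroblasts and 757 and 636 in VSMCs. The same markers assigned the cells, so these values describe the assignment and are not a separate check of the classes. Median UMIs per cell were lower in the case group in every class, at 9087 and 5406 in control and case VSMCs and 10873 and 5145 in fibroblasts.

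Levels are CPM of the UMIs summed over the cells of a class, and a change is given as the log2 ratio, case over control. With 1 library per group there was no replicate check and no test was made. Values in parentheses after a level or ratio are exact 95% intervals, which cover counting error only and not the difference between rats or libraries. A change in a sum cannot separate more mRNA per cell from more cells that express the gene. A gene was counted as higher or lower in a class when it had at least 50 UMIs over both libraries and its ratio was past 1.5-fold.

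In VSMCs, Nmt1, Nmt2 and Metap2 were past 1.5-fold higher in the case group, of which Nmt2 was within it when cells were thinned to equal depth, and none of the 6 genes was past 1.5-fold lower. Among all 10327 genes compared in VSMCs, 6.13% were past 1.5-fold higher and 16.4% lower, and the median log2 ratio was -0.15. The median of the 6 genes was 0.61. The study had named Nmt1 from these same data, so the count and median of the 6 genes are not independent of that choice. In fibroblasts 2 of 6 were past 1.5-fold higher (7.08% of 9006 genes), Nmt1 and Metap2, and 0 lower (15.5%), with a median of 0.50 beside -0.10 for all genes. In ECs 3 of 6 were past it higher (20.4% of 3813 genes) and 1 lower (23.7%). Nmt2 and Metap1 did not reach 50 UMIs in macrophages and Schwann cells. Of the other 4 genes, 1 was past 1.5-fold higher in macrophages (17.5% of 2554 genes) and 0 lower (13.6%). In Schwann cells 2 were higher (29.7% of 895 genes) and 2 lower (21%). The share of genes past 1.5-fold in either direction ran from 22.5% in VSMCs and 22.6% in fibroblasts through 31.2% in macrophages and 44.1% in ECs to 50.7% in Schwann cells, and the 3 classes with few cells had the largest shares.

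**Figure D1:**
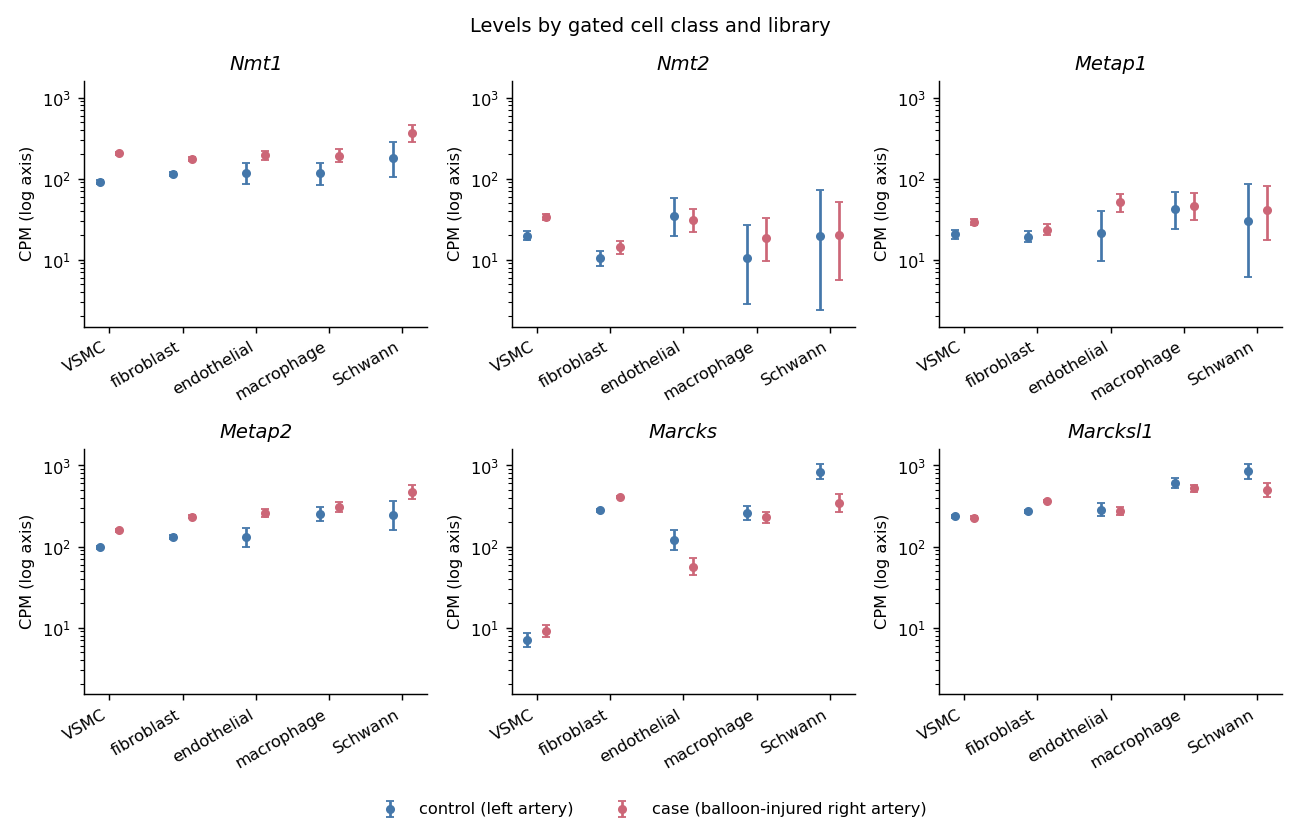
Level (CPM, log axis) of each of the 6 genes in the 5 classes, control in blue and case in red, with exact 95% Poisson intervals for counting error. Nmt1 is higher in the case group in every class, and Marcks in VSMCs (7.13 and 9.13 CPM) lies far under its level in fibroblasts (281 and 410 CPM).

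Nmt1, the main N-myristoyltransferase of most tissues, had the largest difference of the 6 genes in VSMCs. Its level there was 91.7 CPM (86.7 to 96.9, from 1261 UMIs) in the control group and 205 CPM (198 to 213, from 3147 UMIs) in the case group, a log2 ratio of 1.16 (1.07 to 1.26) or 2.24-fold. Only 0.842% of the genes compared in VSMCs had a ratio at or above it. The study had already picked out Nmt1 from these same data. This rank is therefore not independent of how the gene was chosen. The study also reported more NMT1 in the stenotic artery, shown by immunofluorescence of artery sections. In addition it reported more NMT1 staining in cultured mouse aortic VSMCs treated with the growth factor PDGF-BB. Both are measures of protein, whereas the values here are of mRNA. With every cell thinned to 1000 UMIs, 8.54% of control VSMCs (7.03 to 10.3) and 18.8% of case VSMCs (17.4 to 20.4) held an Nmt1 UMI, after 401 control and 22 case cells had been left out as too shallow. Unthinned, the shares were 42.4% and 63.3%. At 1000 UMIs per cell the share with a UMI follows largely from the level, so it restates the difference in level. It does not show that more cells express Nmt1.

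The control and case libraries contributed different groups of VSMCs, since after joint clustering 1351 of the case but 48 of the control cells were in cluster 1, and 315 control but 8 case cells in cluster 16. Nmt1 was therefore also compared within the VSMC clusters that held at least 50 cells of each library, with all cells of a cluster included. In cluster 3 (606 control and 579 case cells) its level was 75.4 CPM in the control and 152 CPM in the case group, a log2 ratio of 1.01 (0.83 to 1.18). The ratios in clusters 4, 8 and 17 were 0.96 (0.67 to 1.24), 1.19 (0.64 to 1.74) and 1.40 (0.86 to 1.96). Nmt1 was higher in the case cells of these 4 clusters, by an amount near that of the whole class. Cluster 17 also held fibroblast markers, at 9118 CPM in its control and 4690 CPM in its case cells. Cluster 8 was shallow, with medians of 1444 UMIs in its control and 1612 UMIs in its case cells. Clusters 1 and 2, with 1351 and 513 case cells but 48 and 25 control cells, were not compared. The clusters were built from the expression of these same cells, with Nmt1 not left out. The part of the cell mix in the ratio of the whole class was not tested.

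In the other classes Nmt1 was higher in the case group as well. Fibroblasts had 114 CPM (107 to 122) in the control and 176 CPM (167 to 186) in the case group, a log2 ratio of 0.62 (0.50 to 0.74). The ratio in VSMCs exceeded that in fibroblasts by 0.54 (0.39 to 0.69), a gap larger than counting error. ECs had 117 and 195 CPM (log2 ratio 0.73, 0.29 to 1.20), macrophages 116 and 193 CPM (0.73, 0.23 to 1.26) and Schwann cells 178 and 362 CPM (1.02, 0.26 to 1.85). For these 3 classes the intervals of the difference from VSMCs included 0. The order of the classes also differed between the libraries. In the control group VSMCs had the lowest level of Nmt1, below fibroblasts by a log2 ratio of 0.32 (0.20 to 0.44), while Schwann cells, ECs, macrophages and fibroblasts, in that order, had neighbouring levels that did not differ beyond counting error. In the case group Schwann cells were highest and VSMCs came next, ahead of ECs, macrophages and fibroblasts. There the gap between Schwann cells and VSMCs, 0.82 (0.46 to 1.16), was the only one between neighbours beyond counting error, and VSMCs were above fibroblasts (fibroblasts over VSMCs -0.22, -0.31 to -0.13).

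Nmt2, the second N-myristoyltransferase, was measured at low levels. In VSMCs it had 19.9 CPM (17.6 to 22.4) in the control and 33.4 CPM (30.6 to 36.4) in the case group, from 273 and 512 UMIs, a log2 ratio of 0.75 (0.54 to 0.97). With cells thinned to 1000 UMIs it was 0.42 and within 1.5-fold. In fibroblasts it had 10.4 and 14.3 CPM (0.45, 0.03 to 0.87), and in ECs 35.1 and 31.2 CPM (-0.17, -1.07 to 0.80). Nmt2 was thus higher in VSMCs than in fibroblasts in both libraries, with fibroblasts over VSMCs at -0.93 (-1.29 to -0.57) in the control and -1.23 (-1.54 to -0.93) in the case group. Macrophages held 4 and 12 Nmt2 UMIs and Schwann cells 2 and 4, too few for a comparison, and no pair of neighbours in the order of the classes differed beyond counting error in either library.

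The balance within the transferase pair was read as the share of Nmt2 in the UMIs of both genes, compared across classes and libraries and not as a level of one gene against the other. This share was 17.8% (15.9 to 19.8) in control and 14.0% (12.9 to 15.2) in case VSMCs. It was 8.36% and 7.49% in fibroblasts and 23.1% and 13.8% in ECs. VSMCs therefore carried relatively more Nmt2 than fibroblasts in both libraries, and the share in case VSMCs was lower than in control VSMCs beyond counting error.

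**Figure D2:**
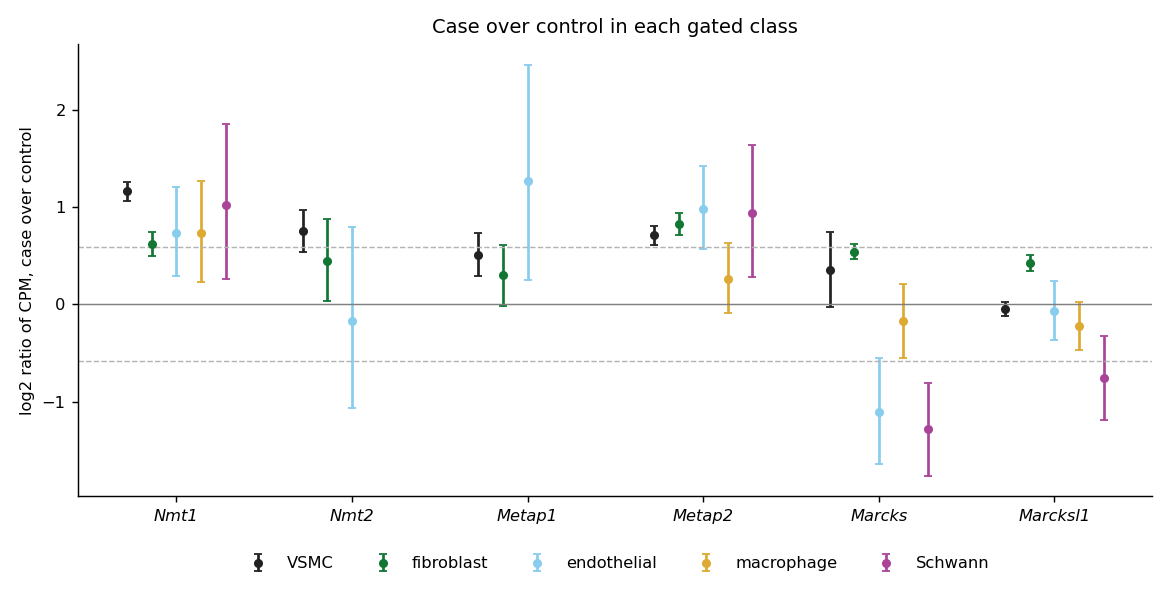
Log2 ratio of CPM, case over control, for each gene (horizontal axis) and class (colours), with exact 95% intervals for counting error; dashed lines mark 1.5-fold, and genes with under 50 UMIs in a class are not drawn. Nmt1 and Metap2 lie above 0 in all 5 classes, and Marcks lies above 0 in fibroblasts (0.54) and below 0 in ECs (-1.10) and Schwann cells (-1.28).

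Metap2, the aminopeptidase that is the target of fumagillin, had a higher level in the case group in each of the 5 classes, beyond counting error in all but macrophages. In VSMCs its level was 97.6 CPM (92.4 to 103) in the control and 159 CPM (153 to 166) in the case group, a log2 ratio of 0.71 (0.61 to 0.81). In fibroblasts it was 131 CPM (124 to 139) and 233 CPM (222 to 244), with 0.83 (0.72 to 0.94). VSMCs and fibroblasts did not differ in this ratio beyond counting error (-0.12, -0.26 to 0.03), unlike for Nmt1. ECs had 131 and 259 CPM (0.98, 0.57 to 1.42), Schwann cells 248 and 474 CPM (0.93, 0.28 to 1.63), and macrophages 256 and 307 CPM (0.27, -0.09 to 0.63). The value in macrophages was within 1.5-fold and its interval included 0, but it was 0.95 with cells thinned to 1000 UMIs. Within VSMC clusters 3, 4, 8 and 17 the ratio of Metap2 was 0.34 (0.15 to 0.53), 0.69 (0.39 to 0.98), 0.59 (-0.07 to 1.24) and 0.63 (0.17 to 1.12), and within fibroblast clusters 6 and 9 it was 0.71 (0.54 to 0.87) and 0.51 (0.35 to 0.66). VSMCs had the lowest level of Metap2 in both libraries. Among neighbours above them, Schwann cells exceeded fibroblasts in the control group (0.92, 0.28 to 1.49) and macrophages in the case group (0.63, 0.25 to 0.99), and the remaining neighbours did not differ beyond counting error.

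Metap1, the other cytosolic methionine aminopeptidase, differed less. Its level in VSMCs was 20.6 CPM (18.3 to 23.1) in the control and 29.3 CPM (26.6 to 32.1) in the case group, a log2 ratio of 0.51 (0.29 to 0.73) that lay within 1.5-fold. Scaling by TMM, which added 0.14 to every ratio in VSMCs, put it at 0.65 and past 1.5-fold. In fibroblasts it was 19.2 and 23.6 CPM (0.30, -0.02 to 0.61). In ECs it was 21.1 and 50.9 CPM (1.27, 0.25 to 2.47), from 9 control UMIs. Macrophages held 42.2 and 46.3 CPM from 16 and 30 UMIs, and Schwann cells 29.7 and 40.8 CPM from 3 and 8 UMIs. In both libraries the levels of neighbouring classes were within counting error of each other, except that case VSMCs exceeded case fibroblasts (fibroblasts over VSMCs -0.31, -0.57 to -0.06). Classes further apart did differ. Macrophages exceeded VSMCs in the control (1.04, 0.21 to 1.76) and case group (0.66, 0.08 to 1.20), and case ECs exceeded case VSMCs (0.80, 0.39 to 1.18). Schwann cells in both groups and control ECs did not differ from VSMCs beyond counting error. The share of Metap1 in the UMIs of the pair was 17.4% and 15.5% in control and case VSMCs, 12.7% (11.0 to 14.7) and 9.20% (7.96 to 10.6) in fibroblasts, and 13.8% and 16.4% in ECs.

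**Figure D3:**
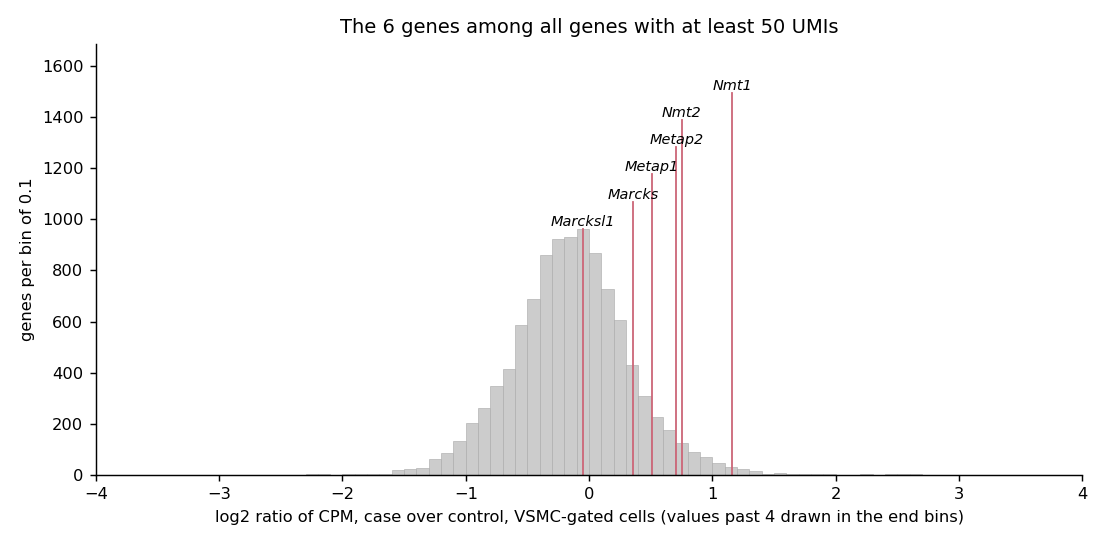
Log2 ratios of the 10327 genes with at least 50 UMIs in VSMCs (grey, number of genes per bin of 0.1), with the 6 genes as red lines. Nmt1 (1.16) stands in the right tail, Metap2 (0.71) and Nmt2 (0.75) are next, and Marcksl1 (-0.05) is near the middle.

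Marcks was low in VSMCs and high in the other classes. Its level in VSMCs was 7.13 CPM (5.79 to 8.68, from 98 UMIs) in the control and 9.13 CPM (7.68 to 10.8, from 140 UMIs) in the case group, while fibroblasts had 281 CPM (270 to 293) and 410 CPM (396 to 424). The few Marcks UMIs in VSMCs were set against those of the fibroblast markers, since RNA of fibroblasts that is free in the suspension would bring both in the ratio they have there. For each 1000 fibroblast-marker UMIs, control VSMCs held 9.42 Marcks UMIs (7.64 to 11.5) and control fibroblasts 12.0 (11.5 to 12.4), and in the case group the values were 14.3 (12.1 to 16.9) and 21.5 (20.8 to 22.3). Per fibroblast-marker UMI, Marcks was thus lower in VSMCs than in fibroblasts of the same library. The part of free fibroblast RNA in this was not tested, and these counts cannot decide it. The log2 ratio of Marcks in VSMCs was 0.36 (-0.03 to 0.74). This interval includes 0, so the ratio is not read as a change of VSMCs. After thinning, 0.821% of control and 0.786% of case VSMCs held a Marcks UMI, beside 20.7% and 25.9% of fibroblasts. Unthinned, the shares were 4.39% and 3.53% in VSMCs and 65.4% and 61.1% in fibroblasts.

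In fibroblasts the log2 ratio of Marcks was 0.54 (0.46 to 0.62), just within 1.5-fold, and TMM scaling put it past 1.5-fold at 0.64. This difference was not seen to the same extent within the main clusters. In cluster 6 Marcks had 523 CPM in the control and 569 CPM in the case group (0.12, 0.02 to 0.22), and in cluster 9 it had 193 and 167 CPM (-0.21, -0.35 to -0.07). Cluster 6, where Marcks was high in both libraries, held 187 of 757 control but 777 of 1400 case fibroblasts, and cluster 9 held 488 and 560. The case group thus held more cluster 6 cells, and within the clusters the differences were small and of opposite sign. The clusters were built from the expression of these same cells, with the 6 genes not left out. Values within a cluster depend on that grouping, and the part of the cluster mix in the 0.54 was not tested. Metap2 and Nmt1, in contrast, were higher in the case group within both clusters, Nmt1 by 0.76 (0.56 to 0.97) in cluster 6 and 0.44 (0.28 to 0.60) in cluster 9.

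Among fibroblasts Marcks also went with Postn, which encodes periostin, a matrix protein of activated fibroblasts. Case fibroblasts in which Postn was detected (273 cells) had 790 CPM of Marcks (749 to 833), and the other 1127 cells had 299 CPM (285 to 313), a log2 ratio of 1.40 (1.30 to 1.5). In the control group, where Postn was detected in 58 of 757 fibroblasts, the levels were 367 and 274 CPM (0.42, 0.23 to 0.61). Between the libraries the log2 ratio of Marcks was 1.11 (0.91 to 1.30) in the cells with Postn detected and 0.13 (0.04 to 0.22) in the others. Metap2 followed Postn in the case group only as far as these intervals show, with 345 and 200 CPM (0.79, 0.64 to 0.93) there and 135 and 131 CPM (0.04, -0.28 to 0.35) in the control group. Nmt1 did not differ beyond counting error between these cells in either group (case 0.06, -0.13 to 0.24, and control -0.18, -0.54 to 0.17). Cells in which Postn was detected were deeper, with medians of 5850 and 4979 UMIs in the case group and 11836.5 and 10733 in the control group. Detection of Postn goes with depth, so the cells with it detected may not be alike between the libraries. By Pi16, a marker of adventitial fibroblasts, the case cells in which it was detected had less Metap2 (196 against 285 CPM) and less Marcks (371 against 463 CPM) than the others. Nmt1 was lower in them too (167 against 189 CPM, -0.19, -0.34 to -0.03), while Nmt2, Metap1 and Marcksl1 did not differ beyond counting error. In the control group Metap2 (-0.12, -0.38 to 0.16), Marcks (-0.02, -0.21 to 0.17) and Nmt1 (-0.20, -0.48 to 0.09) did not differ by Pi16 beyond counting error. Pi16 is also among the markers that assigned the fibroblasts. It was detected in 650 of 757 control and 767 of 1400 case cells. In the case group the medians were 5612 UMIs with Pi16 detected and 4669 without.

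Outside fibroblasts Marcks, summed over a class, was lower or within counting error in the case group. ECs had 122 CPM (91.0 to 160) in the control and 56.6 CPM (44.1 to 71.7) in the case group, a log2 ratio of -1.10 (-1.64 to -0.56). Schwann cells had 843 CPM (673 to 1042) and 346 CPM (269 to 439), with -1.28 (-1.76 to -0.81), from 85 and 68 UMIs in 23 and 61 cells. Macrophages had 258 and 228 CPM (-0.18, -0.55 to 0.21). Summed over each class, Marcks was thus higher in one class and lower in others of the same pair of libraries. Fibroblast markers in these classes were at 251 and 186 CPM in ECs and at 228 and 1004 CPM in Schwann cells, so the control and case Schwann cells differed in them too, and their part in the result was not tested. In the control group Schwann cells had the highest Marcks level, above fibroblasts by 1.58 (1.25 to 1.89). Fibroblasts and macrophages did not differ beyond counting error (macrophages over fibroblasts -0.12, -0.43 to 0.17), and ECs followed. In the case group fibroblasts and Schwann cells were highest and within counting error of each other (Schwann cells over fibroblasts -0.24, -0.61 to 0.10), then came macrophages and ECs.

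Among the ECs of the case group Marcks, Marcksl1 and Metap2 differed with Plvap and Emcn, which mark capillary and venous ECs, and Nmt1, Nmt2 and Metap1 did not differ beyond counting error (Nmt1 0.31, -0.07 to 0.69). The 110 cells with either gene detected had 29.9 CPM of Marcks (from 15 UMIs) and the 150 cells with neither had 75.3 CPM (-1.33, -2.26 to -0.48). Marcksl1 was lower in the same cells (182 and 336 CPM, -0.89, -1.25 to -0.53) and Metap2 was higher (405 and 158 CPM, 1.36, 1.02 to 1.71). Emcn is also among the markers that assigned the ECs. In the control group these cells numbered 12 of 57, so the EC values of the libraries were averages over different mixtures. Within cluster 10, which held 54 control and 161 case cells, Marcks was 119 and 76.7 CPM (-0.63, -1.18 to -0.08) and Nmt1 92.5 and 161 CPM (0.80, 0.29 to 1.33). Metap2 was within 1.5-fold there (112 and 168 CPM, 0.58, 0.11 to 1.07) and in the ECs with neither Plvap nor Emcn (124 and 158 CPM, 0.35, -0.17 to 0.90). In the ECs with either gene detected it was past 1.5-fold (160 and 405 CPM, 1.34, 0.56 to 2.23), from 14 control UMIs.

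Marcksl1, unlike Marcks, was not low in VSMCs. VSMCs had 235 CPM (227 to 244, from 3237 UMIs) in the control and 228 CPM (220 to 235, from 3489 UMIs) in the case group, a log2 ratio of -0.05 (-0.12 to 0.02), and the interval excluded 1.5-fold in either direction. The sign of this small value depended on the scaling (0.09 with TMM). In cluster 3 of the VSMCs it was lower in the case group (222 and 170 CPM, -0.39, -0.53 to -0.25), while in cluster 4 it was 270 and 268 CPM. The ratios in clusters 8 and 17 were above 0 but within counting error (0.33, -0.13 to 0.80, and 0.29, -0.03 to 0.63). Fibroblasts had 272 CPM (261 to 283) and 365 CPM (352 to 379), with 0.43 (0.35 to 0.51), and the ratio in VSMCs was lower than this by 0.48 (difference -0.48, -0.58 to -0.37). ECs had 286 and 273 CPM (-0.07, -0.37 to 0.24), macrophages 609 and 522 CPM (-0.22, -0.47 to 0.03) and Schwann cells 853 and 504 CPM (-0.76, -1.19 to -0.32). Among ECs with Plvap or Emcn detected (12 control cells) the ratio was -1.10 (-1.68 to -0.49). It was 0.37 (0.02 to 0.74) in ECs with neither. The value in Schwann cells was within 1.5-fold with classes given to whole clusters (-0.31), with equal weights (-0.34) and when thinned (-0.36). VSMCs had the lowest level in both libraries, and Schwann cells and macrophages the highest. In the control group ECs and fibroblasts did not differ beyond counting error, nor did macrophages and Schwann cells in the case group, and the other neighbours did.

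The share of Marcks in the UMIs of both relatives ranged more widely over the classes than the shares of the other pairs. It was 2.94% (2.39 to 3.57) in control and 3.86% (3.25 to 4.54) in case VSMCs but 50.9% and 52.9% in fibroblasts. It was 29.9% and 17.2% in ECs, 29.8% and 30.5% in macrophages and 49.7% and 40.7% in Schwann cells. In ECs the intervals of the libraries did not overlap (23.2 to 37.3 and 13.6 to 21.3).

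**Figure D4:**
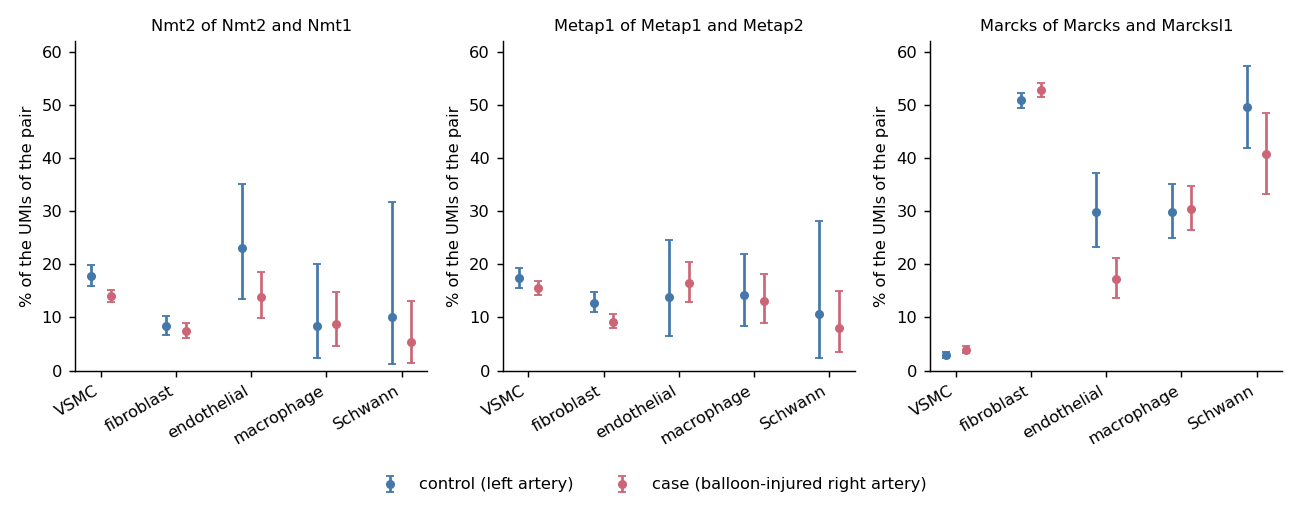
Share of one gene in the UMIs of each pair (percent) by class, control in blue and case in red, with exact 95% binomial intervals. Nmt2 makes up more of its pair in VSMCs (17.8% and 14.0%) than in fibroblasts (8.36% and 7.49%), and Marcks is a few percent of its pair in VSMCs and about the same as Marcksl1 in fibroblasts (50.9% and 52.9%).

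The study asks how VSMCs shift from a contractile to a synthetic state, so the VSMCs of each library were ordered by the share of their UMIs in Acta2, Tagln, Myh11 and Cnn1 and divided into tertiles. The median contractile share was 0.893%, 1.78% and 2.53% in the lowest, middle and highest control tertile and 0.928%, 1.49% and 2.14% in those of the case group. Nmt1 was 104, 88.9 and 89.1 CPM in the control and 232, 199 and 190 CPM in the case tertiles. The highest tertile was below the lowest by a log2 ratio of -0.28 (-0.41 to -0.16) in the case group. In the control group the ratio was -0.22 (-0.43 to 0.0041), which did not differ from 0 beyond counting error. Between the libraries the log2 ratio of Nmt1 was 1.16, 1.16 and 1.09 from the lowest to the highest tertile. The difference between the libraries was therefore several times that between tertiles of one library, and it was present in the most contractile cells. Acta2, Tagln, Myh11 and Cnn1 are also among the markers that assigned the VSMCs. Cells low in them could fall outside the class, so the tertiles cover only the range that was assigned. The lowest control tertile was shallow, with a median of 1642.5 UMIs beside 11300 and 11820.5 in the other two, and the case tertiles had 4576, 5590 and 5939.

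Of the other genes, Metap1 declined over the case tertiles, with 36.4, 30.0 and 22.9 CPM (highest over lowest -0.67, -1.02 to -0.32), and was 21.6, 20.2 and 20.5 CPM in the control ones. Its log2 ratio between the libraries was 0.75 (0.30 to 1.22) in the lowest and 0.16 (-0.21 to 0.54) in the highest tertile. Metap2 was 184, 147 and 152 CPM over the case tertiles (-0.28, -0.42 to -0.14) and 99.2, 105 and 90.2 CPM over the control ones. Nmt2 did not differ beyond counting error between the highest and lowest tertile in either library (control -0.44, -0.94 to 0.07, and case -0.15, -0.47 to 0.18). Marcksl1 was 228, 249 and 207 CPM in the case group (-0.14, -0.26 to -0.01) and 232, 254 and 219 CPM in the control group (-0.08, -0.22 to 0.06). Divided at the median share instead, case VSMCs did not differ in Marcksl1 beyond counting error (-0.02, -0.12 to 0.08). Control VSMCs did differ with that division (upper over lower part -0.16, -0.26 to -0.06). Marcks had 18.2, 7.83 and 3.22 CPM over the case tertiles, from 80, 42 and 18 UMIs (highest over lowest -2.50, -3.32 to -1.75). Fibroblast markers had 820, 640 and 488 CPM in the same cells. Both declined, Marcks more steeply than the markers, and the part of fibroblast RNA in this was not tested. In the control group the ratio of Marcks was -0.81 (-1.64 to 0.04).

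**Figure D5:**
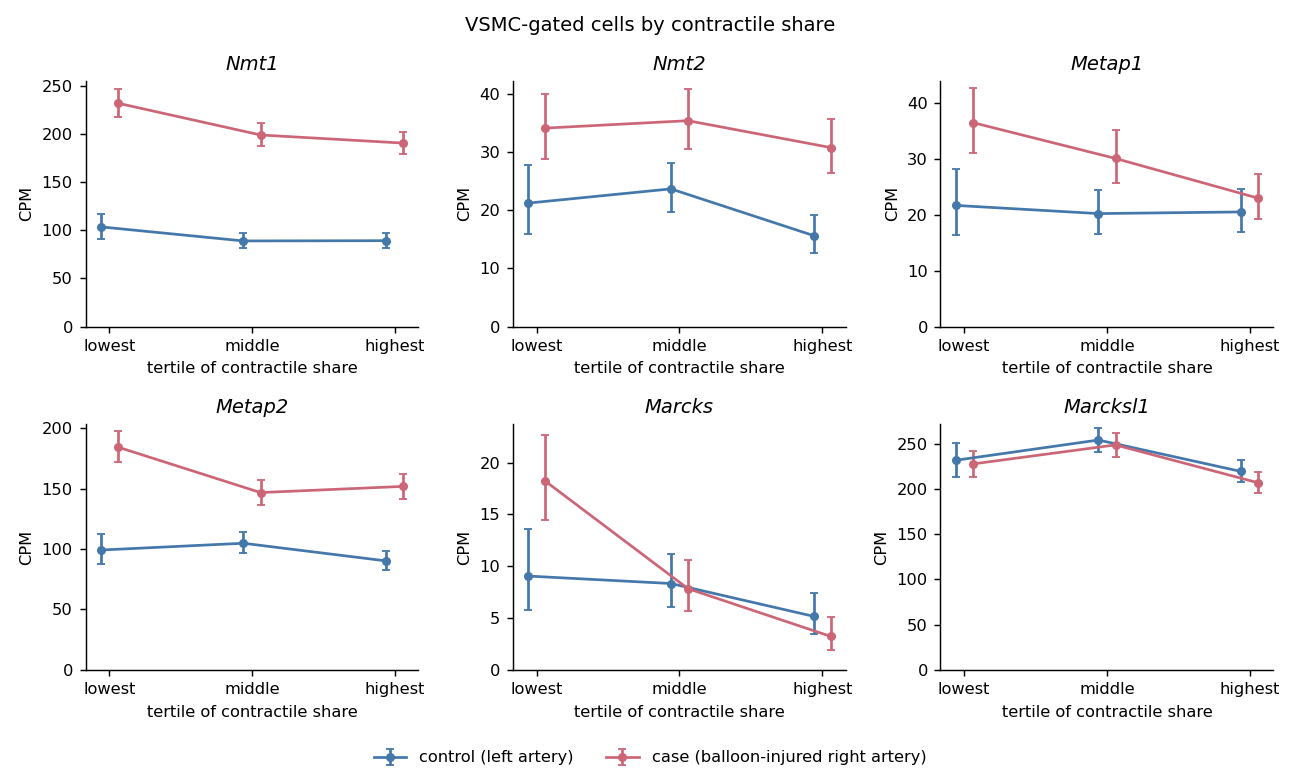
Level (CPM, axis from 0) of each gene in VSMCs by tertile of contractile share, set within each library, control in blue and case in red, with exact 95% Poisson intervals. For Nmt1 the case values (232, 199 and 190 CPM) lie above the control values (104, 88.9 and 89.1 CPM) in all tertiles, and those of Marcksl1 overlap.

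VSMCs were also divided by Notch1, which encodes a receptor of the Notch pathway, and by Spp1, which encodes osteopontin, a protein made by synthetic VSMCs. Nmt1 was 105 CPM in the 436 control VSMCs with Notch1 detected and 81.9 CPM in the other 1183, and 235 and 191 CPM in the 739 and 1956 case VSMCs. The log2 ratio of these cells to the others was 0.35 (0.19 to 0.51) in the control and 0.30 (0.19 to 0.40) in the case group. Metap2 went the same way, by 0.40 (0.24 to 0.55) and 0.35 (0.23 to 0.47). Marcksl1 did too, by the smaller 0.14 (0.04 to 0.24) and 0.21 (0.11 to 0.31). Nmt2, Metap1 and Marcks did not differ by Notch1 beyond counting error in either library. Detection of Notch1 goes with depth, and these cells had medians of 14301 and 6085 UMIs beside 4259 and 5176.5 in the others. VSMCs with at least 1000 CPM of Spp1 had 113 CPM of Nmt1 in the control (102 cells) and 282 CPM in the case group (144 cells), beside 90.5 and 201 CPM in the remaining cells. In the case group this was a log2 ratio of 0.49 (0.28 to 0.69), and in the control group 0.32 (-0.03 to 0.65).

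The proteins that the transferases act on were described by a list. Of 40 genes listed for N-myristoylated proteins, 34 reached 50 UMIs in VSMCs, and 0 were past 1.5-fold higher and 4 past it lower in the case group, beside 6.13% and 16.4% of all genes, so these counts were near the background. Their median log2 ratio was -0.20, and that of all genes -0.15. Src, within 1.5-fold at 46.3 and 65.0 CPM (0.49, 0.34 to 0.63), was past it with TMM (0.63). The 4 were Arf5, a GTPase of the Golgi (170 and 94.4 CPM, -0.85), Gnai1, an inhibitory G protein subunit (9.02 and 5.41 CPM, -0.74), Arf1, another Golgi GTPase (21.7 and 13.4 CPM, -0.69), and Prkaca, the catalytic subunit of protein kinase A (60.9 and 40.0 CPM, -0.61). In fibroblasts 30 were compared, and 2 were higher and 2 lower, beside 7.08% and 15.5% of all genes. Src, the founding Src-family kinase, was at 16.2 and 27.5 CPM there (0.76), and Yes1, a kinase of the same family, at 4.08 and 7.26 CPM (0.83). Arf3 had 81.2 and 53.9 CPM (-0.59) and Basp1, a membrane protein related in function to MARCKS, 55.2 and 36.0 CPM (-0.62). With TMM the counts in VSMCs were 1 higher and 2 lower, and in fibroblasts 2 higher and 0 lower.

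Of 15 genes for other steps at the N-terminus and for the supply of myristoyl-CoA, 14 were compared in VSMCs, and 0 were past 1.5-fold higher and 3 lower (median -0.14), near the 6.13% and 16.4% of all genes. They were Unc119 (26.8 and 16.9 CPM, -0.66) and Unc119b (50.9 and 32.2 CPM, -0.66), which carry myristoylated proteins between membranes, and Acbd6, a protein that binds acyl-CoA (21.7 and 14.4 CPM, -0.59). All 3 came within 1.5-fold with TMM scaling. In fibroblasts 0 of 12 were higher (7.08% of all genes) and 2 lower (15.5%), Acsl5, an acyl-CoA synthetase (27.7 and 16.1 CPM, -0.79), and Unc119b (31.8 and 21.1 CPM, -0.59), with a median of -0.01. With TMM Acsl5 was still past 1.5-fold (-0.69).

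Of 17 genes for kinases of MARCKS, calmodulins, phosphatases and enzymes of PIP2 and related lipids, 15 were compared in VSMCs, and 1 was past 1.5-fold higher and 2 lower (median -0.09), near the 6.13% and 16.4% of all genes. Prkce, a protein kinase C, had 2.33 and 3.91 CPM (0.75, 0.11 to 1.42) from 32 and 60 UMIs. Calm3 and Calm2, which encode the same calmodulin protein, had 55.8 and 24.2 CPM (-1.20, -1.39 to -1.02) and 429 and 282 CPM (-0.60, -0.66 to -0.55). With TMM Calm3 was at -1.06 and Calm2 at -0.46, the latter within 1.5-fold, and Pip5k1a, a kinase that makes PIP2 (36.9 and 52.0 CPM, 0.50), was past it at 0.64, so that 2 genes of the list were higher and 1 lower. In fibroblasts 0 of 13 were past 1.5-fold in either direction (22.6% of all genes), with a median of -0.07.

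The genes whose levels went most closely with each of the 6 over the 10 points (5 classes in 2 libraries) were found among 5144 genes by Pearson's r, as a description, since the points share libraries and depths. For Nmt1 they were Son (0.96), Snrpb2 (0.94) and AABR07062344.2 (0.93), and for Metap2 Snrnp70 (0.97), Rbm19 (0.96) and Snw1 (0.93). For Nmt2 they were Sin3a (0.94), Eapp (0.93) and Sf3a1 (0.91), and for Metap1 Mtmr1 (0.93), AABR07048397.1 (0.92) and Mapk6 (0.91). Marcks went with Cbfb (0.96) and S100a10 (0.93), and Marcksl1 with Eif3d (0.96), Cct3 (0.96) and Rnh1 (0.95).

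Measures of RNA quality moved between the libraries too. Ribosomal protein genes made up 11.0% of UMIs in control and 13.2% in case VSMCs, and 12.3% and 15.2% in fibroblasts. The median number of genes per cell was 2472 and 1732 in VSMCs and 2482 and 1530.5 in fibroblasts. Mitochondrial genes made up 6.01% and 6.50% in VSMCs and 2.21% and 2.33% in fibroblasts. Their part in the differences between the libraries was not tested, and with 1 library per group library and injury cannot be told apart.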

How the data were processed

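Carotid arteries were measured in 1 control and 1 case library, each pooling 2 rats. The counts deposited by the authors are UMIs of each gene in each barcode, in 1 matrix for both libraries, made with Cell Ranger 3.1.0, and the submitters' processing notes also name Seurat and the build Rnor_6.0. The barcode suffix with 3321 barcodes was taken as control and that with 5656 as case, from the numbers stated by the study. Whether depths had been equalized when the libraries were joined is not given in the sources used here.

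Barcodes were left out above 20% mitochondrial UMIs, beyond 2 SD from the mean of their library in log10 UMIs or log10 genes, or beyond 3 robust SD from the line of genes against UMIs. For each of 5 classes the CPM of its 6 to 9 markers was divided by its 99.5th percentile over kept cells (limit 1). A cell took the class with the highest score if this was at least 0.1 and 2 times the next, with at least 2 markers detected. T cell markers were left out because their percentile was 0. Scrublet with its automatic threshold called 6 control (0.219%) and 0 case cells, so it had not worked, and doublets were left in. Joint clustering used scanpy 1.11.5 and leidenalg 0.10.2 at resolution 0.8.

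UMIs were summed per class and library. Intervals are exact at 95% (Poisson, binomial, or conditional binomial for ratios), and those of differences between ratios are normal approximations from the counts. No test was possible with 1 library per group. Ratios and gates were run on counts simulated from the summed profiles of these classes, with counting error only. This checks the code, and not shallow cells, doublets, free RNA or differences between libraries. Software was Python 3.11.15, numpy 2.4.6, scipy 1.17.1, pandas 2.3.3, matplotlib 3.10.9, R 4.3.3 and edgeR 4.0.16 (TMM factors only).

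The 6 genes, markers and lists were chosen with earlier results of these data known. All 6 genes were named, from each list the genes past 1.5-fold (at most 4 in each direction), and the 3 genes most alike to each of the 6 among those with a mean of at least 20 CPM. Plvap, Pip5k1a, Src in VSMCs and the values within clusters were chosen after seeing the data. Of the alternatives, 11 were planned and 2 added after seeing the data. Promoters matched by symbol for 6 of 6 genes. Protein sequences were not used here, and some genes that the rule would name are not reported here.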

Additional observations from a re-analysis of the deposited data

Results flagged for a closer look

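Summed over each class, Marcks went in opposite directions in different classes of the same libraries. Its log2 ratio, case over control, was 0.54 in fibroblasts and -1.10 in ECs, with intervals that excluded 0 on either side, and this difference between classes was not tested. It was -1.28 in Schwann cells, opposite to the 0.54 in fibroblasts, which was likewise not tested. Within fibroblast clusters 6 and 9 the ratio was only 0.12 and -0.21, and within EC cluster 10 it was -0.63. The 0.54 is thus not a rise seen in fibroblasts of every cluster.

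Marcksl1 had a log2 ratio of 0.43 in fibroblasts and -0.76 in Schwann cells, and the difference was not tested. With classes given to whole clusters the value in Schwann cells was -0.31. The Schwann cells numbered 23 and 61, with 86 and 99 UMIs of Marcksl1.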

How the results depend on the processing

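The log2 ratios of Nmt1 and Metap2 in VSMCs and fibroblasts were positive under every alternative run, at 1.15 to 1.30 and 0.68 to 0.85 in VSMCs and 0.59 to 0.76 and 0.79 to 1.15 in fibroblasts. Nmt1 in VSMCs was 1.30 with TMM scaling and 1.27 with cells thinned to 1000 UMIs, and Nmt2 in VSMCs was 0.42 when thinned, within 1.5-fold. Metap2 in VSMCs was 0.85 with TMM and 0.82 with each cell weighted equally. Marcksl1 in VSMCs, at -0.05, became 0.0910 with TMM, 0.14 with equal weights and 0.0258 when thinned. Marcks in VSMCs, at 0.36, became -0.33 when the cells with the highest Scrublet scores were left out (73 control and 223 case cells), so its sign there is not settled. The number of genes past 1.5-fold in VSMCs was 2323 with at least 50 UMIs, 1528 with at least 200 and 4973 with no minimum beyond 1 UMI in each library, where fewer or more genes were compared. In macrophages the ratio of Marcks ran from -0.60 (classes given to whole clusters) to 0.31 (score of at least 0.20), and when thinned that of Marcksl1 in ECs reached 0.48 and that of Metap2 in macrophages 0.95. The causes were not tested. Leaving out the 21 shared barcodes or barcodes under 2000 UMIs, a mitochondrial limit of 10%, a margin of 4 times and collagens among the fibroblast markers moved none of these ratios beyond its interval. No paired analysis was possible because each group is 1 library in which the rats were pooled and the labels give no replicate numbers. Depth limits the small classes, where Nmt2 and Metap1 could not be compared in macrophages and Schwann cells.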
